A study of Mus musculus with 8 samples.

Results

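The expression of 10 genes that beta-catenin and its TCF/LEF partners are known to activate was followed during the serum-to-2i transition of mouse ESCs. The genes were Axin2, Nkd1, Rnf43, Tcf7, Lef1, Cdx1, Cdx2, Sp5, Nkx1-2, and Ccn4. They were taken as the rows of the count tables whose Ensembl identifier carries one of these symbols in GENCODE M21, and all 10 were found among the 37263 counted identifiers. RNA was sequenced from E14 cells, an ESC line of 129/Ola background grown without feeders. Before the transfer the cells were kept in serum medium with LIF, and total RNA was collected at 4, 16, 24, and 32 hr after it. The first group was transferred to 2i alone, and the second to 2i with 17 µM vitamin C (vitC, L-ascorbic acid). 2i is serum-free NDiff 227 medium with LIF, the MEK inhibitor PD0325901, and the GSK3 inhibitor CHIR99021. The labels give the inhibitors as 1 mM and 3 mM. The study's methods write the same figures in µM. Both groups therefore received CHIR99021 at every time point, 1 library represented each of the 8 combinations of hour and treatment, and no library from serum was analysed here. Each value describes 1 cell line and 1 library, and cells of different states were not separated, so that fewer cells expressing a gene and less RNA per cell cannot be told apart.

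GSK3 phosphorylates beta-catenin within a cytoplasmic complex built on AXIN and APC, which marks beta-catenin for degradation. When a Wnt ligand binds its receptors, or when GSK3 is inhibited by CHIR99021, beta-catenin escapes degradation and joins TCF/LEF factors at their target genes in the nucleus. Several targets feed back on the pathway. Axin2 encodes a scaffold of the degradation complex, Nkd1 an inhibitor that binds Dishevelled, and Rnf43 a membrane ubiquitin ligase that removes Frizzled receptors from the cell surface. Tcf7 and Lef1 encode TCF/LEF factors themselves. Cdx1, Cdx2, Sp5, and Nkx1-2 encode transcription factors of the posterior embryo, of which Cdx2 also specifies trophoblast, and Ccn4 (Wisp1) encodes a secreted matricellular protein. In ESCs, inhibition of GSK3 is known to support self-renewal mainly by relieving repression by TCF7L1.

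TCF/LEF factors recognize DNA through a short core, and the RefSeq promoter windows (GRCm38.p6) of the genes were searched on both strands for 4 of its spellings. These were CTTTGAT with the related spelling CTTTGAA, as well as CTTTGTT with the related spelling CTTTGTA, and no 2 of them can share a position on a strand. The window was the 250 bases before an annotated start. Windows were given for 8 of the 10 genes, 13 windows in all, and Cdx1 and Ccn4 had none. A match was found in 2 of the 13 windows, which is near the share over all 32817 windows of this length, 14.8%. Windows of the same gene can overlap, as at Lef1. The Sp5 window (chr2:70474673-70474922, plus strand) held 2 matches, CTTTGTT on the minus strand and CTTTGAT on the plus strand, whose first letters in the direction of transcription lie 222 and 104 bases before the start. The other match was CTTTGTA on the minus strand, 147 bases before an internal start of Lef1. The Axin2 window (chr11:108920099-108920348, plus strand) held none, although Axin2 is the target most often used as a readout of the pathway. The Sp5 and Axin2 windows are given 5′ to 3′ along the gene, with matches in capitals. The count files carry no coordinates and no binding was measured, so a match is only a description of the letters.
Sp5: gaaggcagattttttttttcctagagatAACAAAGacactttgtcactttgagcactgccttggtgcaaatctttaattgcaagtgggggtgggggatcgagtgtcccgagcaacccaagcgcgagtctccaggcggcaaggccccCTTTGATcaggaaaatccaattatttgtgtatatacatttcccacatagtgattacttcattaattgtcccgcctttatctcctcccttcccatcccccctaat
Axin2: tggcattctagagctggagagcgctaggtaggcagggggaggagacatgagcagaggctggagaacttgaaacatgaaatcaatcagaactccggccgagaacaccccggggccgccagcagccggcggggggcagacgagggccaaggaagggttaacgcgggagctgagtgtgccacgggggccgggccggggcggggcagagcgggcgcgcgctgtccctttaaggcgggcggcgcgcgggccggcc

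Library totals ranged from 12940716 to 18434932 counts in 2i and from 4753528 to 13157570 with vitC. The 4 and 24 hr libraries ran on lane 8 and the 16 and 32 hr libraries on lane 7, and the effect of lane on the comparisons of 4 hr with 16 or 32 hr cannot be told apart from that of time. Lars2, Gm23935, and ENSMUSG00000093077 together took 0.0277%, 0.206%, 5.92%, and 0.564% of the counts in 2i at 4, 16, 24, and 32 hr. In the vitC libraries the shares were 0.0113%, 7.11%, 6.37%, and 4.21%. Markers of ESCs summed to 1030 to 1250 CPM (counts scaled to the TMM-adjusted library total) in every library. The sum hides changes of its members, as 1 of the 6 rose and 3 fell at 16, 24, and 32 hr relative to 4 hr. Of all genes tested 9.16%, 11.5%, and 13.5% rose and 7.24%, 8.98%, and 11.8% fell. At 16 hr Sox2 was at 0.66 on the log2 scale, Pou5f1 at -0.69, Zfp42 at -0.91, and Utf1 at -3.16. Of the other cell types looked for, the trophoblast list summed to 28.5 to 46 CPM with 2 of its 10 markers, Psg17 and Prl3d1, at 0 in all libraries, and the list of primitive streak and mesoderm to 14.6 to 31.6 CPM with 4 of 10 under 1 CPM in all. The 7 fibroblast markers summed to 96.4 and 116 CPM at 4 hr and to 261 to 676 CPM later, mostly from Col1a1 and Col1a2. The primitive endoderm list summed to 164 to 257 CPM. Relative to 4 hr, none of its 7 tested markers passed at 16 hr, where 9.16% of all genes tested rose. At 24 hr 3 rose (Pdgfra, Dab2, and Lama1), where 11.5% of all genes did, and at 32 hr 4 rose, where 13.5% did. None of the 7 fell. The rises at 32 hr were 2.89 for Sox17, 1.68 for Pdgfra, 1.28 for Dab2, and 0.68 for Lama1 on the log2 scale. Sox17 had a mean of only 1.88 CPM, and Gata4 and Gata6 had means of 1.79 and 0.929 CPM. Most of the sum came from Col4a1 and Lama1, with means of 116.9 and 82.67 CPM. Of the neural list 5 of 6 markers were found, and Olig2 was at 0 in all libraries. The list summed to 395 and 447 CPM at 4 hr and to 189 to 261 CPM later. These sums came mostly from Nes and Tubb3 (means of 186.5 and 91.93 CPM), the only 2 of the list that passed the filter. The part of these markers in the results below was not tested.

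All 10 genes passed the filter of at least 1 CPM in at least 2 libraries. Per length (RPKM, CPM divided by the merged exon length in kb), Sp5 had the highest mean over the 8 libraries, 21.3 RPKM, with a range of 15 to 28.1 RPKM. Cdx1 followed with 15.1, Tcf7 with 12.7, Axin2 with 11.5, Ccn4 with 7.91, and Nkx1-2 with 6.72 RPKM. Cdx2 stood at 1.98, Nkd1 at 1.28, Lef1 at 1.21, and Rnf43 at 0.837 RPKM. The ranges of every adjacent pair overlapped. Compared within libraries, Nkx1-2 lay above Cdx2 in all 8, whereas the order of each other adjacent pair turned in at least 1 library. The lowest library of Sp5, Tcf7, Axin2, Ccn4, or Nkx1-2 (3.32 RPKM, Nkx1-2 at 32 hr with vitC) lay above the highest library of Nkd1, Lef1, or Rnf43 (2.22 RPKM, Lef1 at 24 hr with vitC). Exons of Axin2, Lef1, and Nkx1-2 overlap those of antisense genes by 209, 1208, and 541 bp, respectively. The library kit does not mark strand, so that the strand of reads in these stretches is not known. The antisense genes at Axin2 and Nkx1-2 are among the counted identifiers, whereas that at Lef1 is not.

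**Figure D1:**
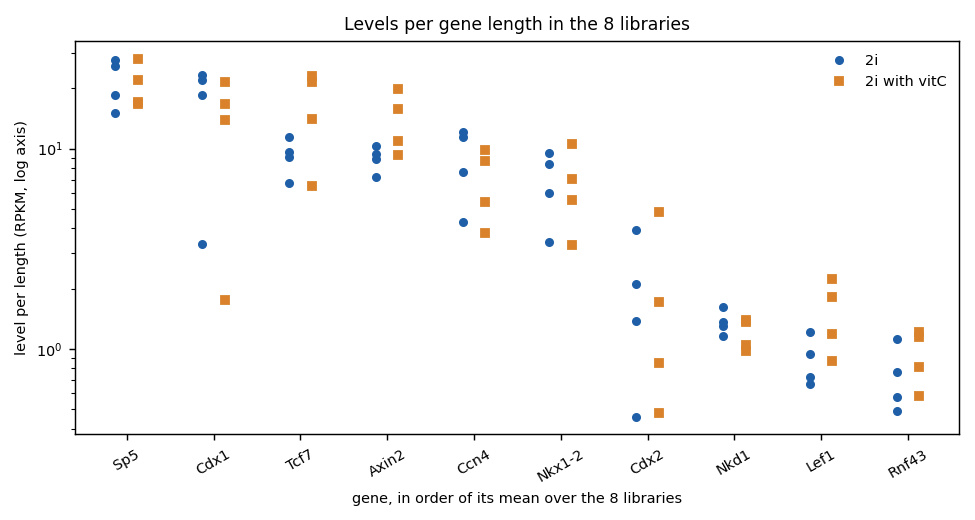
Level per gene length (RPKM, logarithmic axis) of each gene in the 4 libraries in 2i (circles) and the 4 with vitC (squares), in order of the mean over all 8. Sp5 is highest with a mean of 21.3 RPKM, Rnf43 lowest with 0.837 RPKM, and Cdx1 and Cdx2 spread the most.

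Among the feedback inhibitors, Axin2 was well expressed at the first time point. In 2i it was at 49.1 CPM at 4 hr, 51.6 CPM at 16 hr, 56.5 CPM at 24 hr, and 39.6 CPM at 32 hr. With vitC it was at 51.2, 86.7, 109.6, and 60.3 CPM at the same hours. The treatments were thus alike at 4 hr and their Wilson intervals stood apart at each later hour, and the highest library of each treatment was that of 24 hr. Nkd1 varied least of the 10 genes, between 5.31 and 7.39 CPM in 2i and between 4.47 and 6.34 CPM with vitC, and the counting intervals of most of its libraries overlapped. Rnf43 was at 3.2, 7.36, 5.01, and 3.79 CPM in 2i at 4, 16, 24, and 32 hr. With vitC it was at 3.81, 7.92, 7.51, and 5.33 CPM. In both treatments Rnf43 was lowest at 4 hr and highest at 16 hr, where the 95% Wilson interval was 6.24 to 8.68 CPM in 2i and 6.09 to 10.3 CPM with vitC. Such intervals include counting error and nothing else, because the reads carry no molecular identifiers and may repeat a molecule.

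Of the TCF/LEF factors, Tcf7 was at 17.7, 25.3, 29.8, and 23.8 CPM in 2i at 4, 16, 24, and 32 hr. With vitC it was at 17.2, 56.2, 60.5, and 36.8 CPM. The lowest library of Tcf7 was that of 4 hr and the highest that of 24 hr in both treatments, and its range was 1.69-fold in 2i and 3.52-fold with vitC. Lef1 was at 8.32, 10.7, 5.87, and 6.38 CPM in 2i and at 10.4, 16, 19.5, and 7.66 CPM with vitC. The 24 hr library of Lef1 was the highest with vitC (15.9 to 24 CPM, Wilson interval). In 2i it was the lowest (4.69 to 7.36 CPM), with an interval that overlapped that of 32 hr.

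The caudal-type homeobox genes went opposite ways. Cdx1 was at 5.88 CPM in 2i at 4 hr (Wilson interval 4.84 to 7.14) and at 40.6, 32.3, and 38.3 CPM at 16, 24, and 32 hr. With vitC it was at 3.06 CPM at 4 hr (2.26 to 4.15) and at 37.6, 24.4, and 29.1 CPM thereafter. Every later library was thus above both 4 hr libraries, and the lowest of them, 24 hr with vitC, was 4.16-fold above the higher 4 hr value. Cdx2 was at 8.9, 4.78, 3.13, and 1.04 CPM in 2i at 4, 16, 24, and 32 hr. With vitC it was at 11, 3.89, 1.93, and 1.08 CPM, each hour below the one before in both treatments. At 32 hr these levels rested on 14 and 13 counts, with Wilson intervals of 0.619 to 1.74 and 0.633 to 1.85 CPM. The 24 hr level with vitC rested on 9 counts (1.02 to 3.67 CPM). With vitC the counting intervals of the log2 ratios of 24 to 16 hr (-2.04 to 0.13) and 32 to 24 hr (-1.98 to 0.48) included 0. The same intervals in 2i did not. With Cdx1 rising and Cdx2 falling, the order of the pair was reversed during the course. Cdx2 exceeded Cdx1 in both 4 hr libraries per length (3.94 against 3.36 RPKM in 2i, 4.85 against 1.75 RPKM with vitC), whereas at 32 hr Cdx1 was at 21.9 and 16.6 RPKM and Cdx2 at 0.46 and 0.479 RPKM.

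Sp5, Nkx1-2, and Ccn4 shared a late decline. Sp5 was at 54.2, 58, 38.8, and 31.5 CPM in 2i and at 46, 59.1, 35, and 35.8 CPM with vitC. Nkx1-2 was at 27.3, 31, 19.7, and 11.1 CPM in 2i and at 22.9, 34.6, 18, and 10.8 CPM with vitC. Both genes were highest at 16 hr in either treatment, and for each gene the 4 libraries of 24 and 32 hr lay below the 4 of 4 and 16 hr. Ccn4 was at 67.7, 63.7, 42.4, and 23.8 CPM in 2i and at 54.8, 48.3, 30, and 21.2 CPM with vitC. Its highest library was that of 4 hr in both treatments, and it was 2.84-fold and 2.59-fold above the lowest, that of 32 hr.

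**Figure D2:**
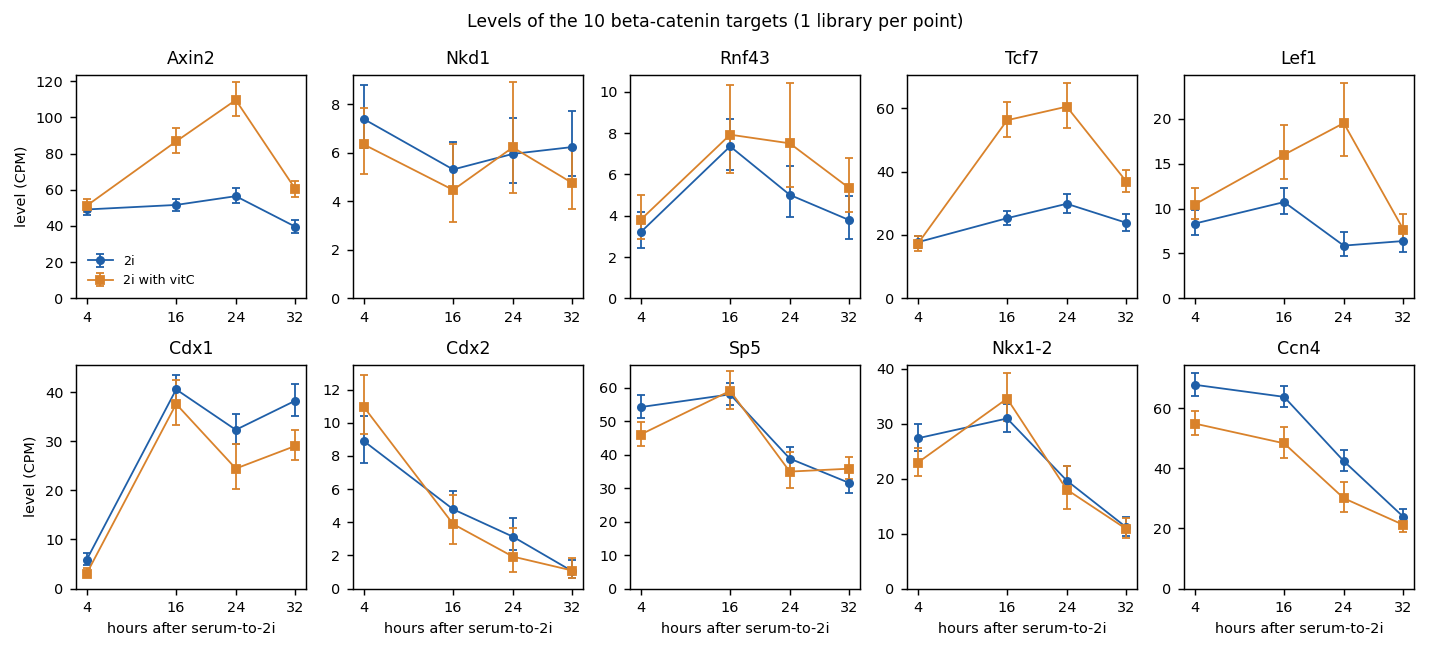
Level of each gene (CPM, each axis from 0) against hours after the transfer to 2i, for the library in 2i (circles) and with vitC (squares), with 95% Wilson intervals that cover counting error only. Cdx1 is at 5.88 and 3.06 CPM at 4 hr and at 24.4 CPM or more later, Cdx2 ends near 1 CPM, and the vitC curves of Axin2 and Tcf7 lie above those of 2i from 16 hr on.

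The time course was tested in an additive model of hour and treatment on all 8 libraries with edgeR's quasi-likelihood test, Benjamini-Hochberg adjustment over 14931 genes, and a threshold of 0.05. The error term comes from how far the 2 treatments depart from parallel courses (3 residual degrees of freedom), as there are no replicate cultures. For each gene it is moderated toward a trend over all genes, which adds to these degrees of freedom. Each SE is the size of the log2 fold change divided by the square root of the F statistic. The comparisons with 4 hr share the same 2 libraries of that hour. From 4 to 16 hr, 3 of the 10 genes rose, where 9.16% of all genes tested did. Cdx1 rose by 3.15 on the log2 scale (SE 0.23, adjusted p = 3.77e-05), which is the largest change of any of the 10 genes in this comparison. Tcf7 rose by 1.08 (SE 0.25, adjusted p = 0.0134) and Rnf43 by 1.14 (SE 0.31, adjusted p = 0.0276). Cdx2 was the 1 gene that fell, where 7.24% of all genes did, with a log2 fold change of -1.19 (SE 0.34, adjusted p = 0.0332). Without the treatment term in the model Cdx1 alone passed, Rnf43 also missed the threshold once corrected for GC content and length (0.95, adjusted p = 0.0513), and Cdx2 missed it with DESeq2 (adjusted p = 0.0534). The other 6 genes had log2 fold changes of -0.49 (Nkd1) to 0.49 (Lef1) and did not pass. The median of the 10 genes was 0.39, against 0.006 over all genes.

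From 4 to 24 hr, a comparison within lane 8, 3 of the 10 genes rose and 2 fell, where 11.5% and 8.98% of all genes did. Cdx1 rose by 2.67 (SE 0.23, adjusted p = 3.3e-05), Tcf7 by 1.25 (SE 0.25, adjusted p = 0.00523), and Axin2 by 0.63 (SE 0.19, adjusted p = 0.0353). The log2 ratio of the 24 hr to the 4 hr library of Axin2 was 0.20 in 2i but 1.10 with vitC. This call was lost under 4 alternatives, among them one that corrects for GC content and length (0.51, adjusted p = 0.0643). Tcf7 missed the threshold without the treatment term (adjusted p = 0.0521). Cdx2 fell by 1.91 (SE 0.37, adjusted p = 0.00417) and Ccn4 fell by 0.76 (SE 0.16, adjusted p = 0.0062). The median of the 10 genes was 0.03 and that of all genes 0.008, with 5 of the 10 above 0 and 5 below.

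By 32 hr the falls outnumbered the rises. Relative to 4 hr, 2 of the 10 genes were higher and 4 lower, where 13.5% and 11.8% of all genes were. Cdx1 remained higher by 2.92 (SE 0.23, adjusted p = 9.85e-06) and Tcf7 by 0.72 (SE 0.25, adjusted p = 0.0493). Tcf7 was close to the threshold and missed it under 7 of the alternatives tried. Cdx2 fell by 3.22 (SE 0.39, adjusted p = 0.000168), Ccn4 fell by 1.44 (SE 0.16, adjusted p = 9.89e-05), Nkx1-2 fell by 1.19 (SE 0.20, adjusted p = 0.00128), and Sp5 fell by 0.57 (SE 0.16, adjusted p = 0.0222). Axin2 was at -0.06 (SE 0.19, adjusted p = 0.845), and Lef1, Nkd1, and Rnf43 did not pass either. The median of the 10 genes was -0.37, against 0.005 over all genes.

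Between 16 and 32 hr, which shared lane 7, few genes passed the threshold. Higher at 32 hr were 0.335% of all genes tested and lower 0.248%, or 50 and 37 genes, a balance that became 54 and 68 once GC content and gene length were corrected for. In edgeR 2128 of the 14931 genes tested, and 7 of the 10, were at an unadjusted p under 0.05. After adjustment none of the 10 genes rose and 3 fell. Nkx1-2 fell by 1.57 (SE 0.20, adjusted p = 0.00447), Ccn4 fell by 1.31 (SE 0.16, adjusted p = 0.00382), and Cdx2 fell by 2.03 (SE 0.40, adjusted p = 0.0462). Cdx2 lost its call under 6 alternatives, at adjusted p-values of 0.0508 to 0.1, and Ccn4 lost its call without the treatment term (adjusted p = 0.0643). Sp5, at -0.80 (SE 0.16, adjusted p = 0.0508), just missed the threshold and passed it under 5 alternatives. Of the 10 genes, 9 had a negative log2 fold change, all but Nkd1 (0.16), and their median was -0.79, against -0.002 over all genes.

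The share of Lars2, Gm23935, and ENSMUSG00000093077 also rose after 4 hr. With this share as a covariate, which overlaps with time, 1 of the 10 genes passed between 4 and 16 hr, none between 4 and 24 hr, and 1 between 4 and 32 hr. Cdx1 was the gene that passed at 16 and 32 hr. As the share and time moved together, their parts in these calls cannot be told apart. In 2i the share was 0.0277% at 4 hr and 0.564% at 32 hr. The log2 ratio of the 32 hr to the 4 hr library in 2i was 2.67 for Cdx1, 0.43 for Tcf7, -2.92 for Cdx2, -1.501 for Ccn4, -1.28 for Nkx1-2, and -0.78 for Sp5. Between 16 and 32 hr the same covariate left the calls of Ccn4 and Nkx1-2 in place and took that of Cdx2 (adjusted p = 0.0551).

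**Figure D3:**
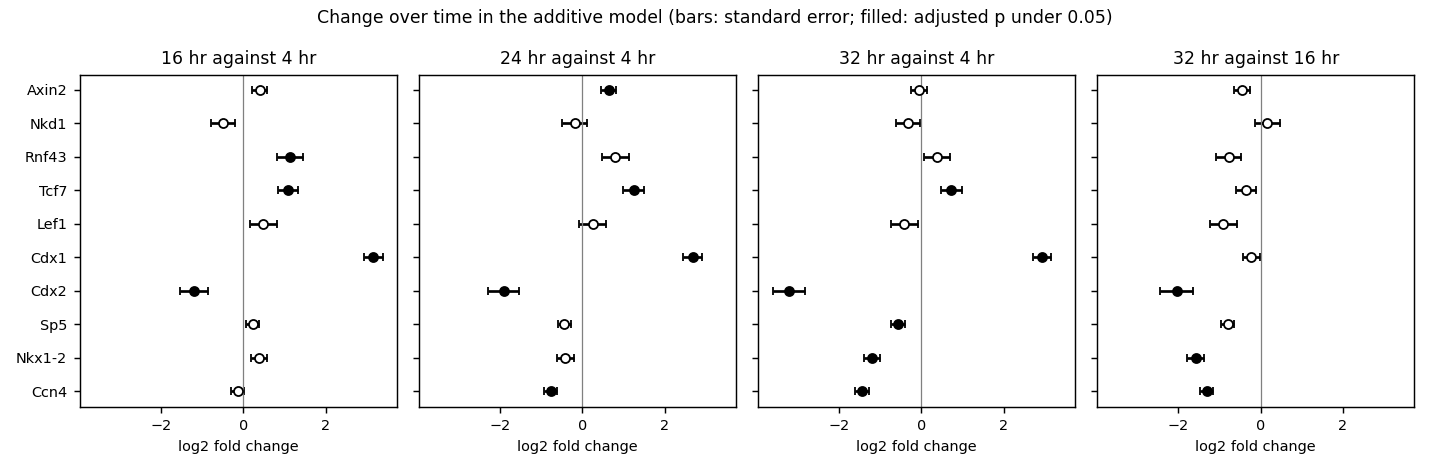
Log2 fold change of each gene between 2 hours in the additive edgeR model on all 8 libraries, with its standard error as the bar, and filled where the adjusted p-value was under 0.05. Cdx1 is at 3.15, 2.67, and 2.92 against 4 hr and Cdx2 at -1.19, -1.91, and -3.22, whereas between 16 and 32 hr Nkx1-2, Ccn4, and Cdx2 lie below 0.

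vitC was compared with 2i over the 4 pairs of libraries matched on hour and lane. None of the 10 genes passed the test with hour as a block, where 0.167% of all genes did (16 higher and 9 lower with vitC, or 42 and 12 with library totals in place of TMM scaling). At an unadjusted p under 0.05 there were 5 of the 10 in edgeR, where 2062 of the 14931 genes tested were. Axin2 was nearest, higher with vitC by 0.59 on the log2 scale (SE 0.14, adjusted p = 0.0769), with Tcf7 at 0.70 (SE 0.18, adjusted p = 0.0975) and Lef1 at 0.70 (SE 0.23, adjusted p = 0.196). Ccn4, at -0.34 (SE 0.11, adjusted p = 0.189), and Cdx1, at -0.42 (SE 0.15, adjusted p = 0.233), were lower. DESeq2 called Axin2 and Tcf7 (adjusted p = 0.0132 and 0.0212), as did edgeR without the 4 hr pair (0.0103 and 0.0107).

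Hour by hour, the log2 ratio of the vitC to the 2i library for Axin2 was 0.06 at 4 hr (95% counting interval -0.09 to 0.20), 0.75 at 16 hr, 0.95 at 24 hr, and 0.61 at 32 hr. Tcf7 was at -0.04 at 4 hr (-0.29 to 0.20) and at 1.15, 1.01, and 0.62 thereafter. Both genes were thus level between the treatments at 4 hr, and their later intervals all lay above 0. Lef1 was at 0.32, 0.57, 1.70, and 0.26, with the interval at 24 hr (1.26 to 2.15) apart from the others. Ccn4 was lower with vitC at all 4 hours, at -0.30, -0.40, -0.49, and -0.17, although the last interval included 0. Cdx1 was also lower at all 4 hours, most at 4 hr with -0.91 (-1.43 to -0.38), where it was counted 101 and 41 times. The ratios of Sp5, Nkx1-2, Cdx2, and Nkd1 took both signs. Rnf43 was above 0 at each hour with intervals that included it. No gene, and so none of the 10, passed for a vitC effect that changed linearly with hours (edgeR, 0 of 14931 genes, with 431 genes and 0 of the 10 at an unadjusted p under 0.05), a test with 2 residual degrees of freedom.

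The share of Lars2, Gm23935, and ENSMUSG00000093077 was low in both libraries at 4 hr and higher with vitC at the 3 later hours. Axin2 and Tcf7 were higher with vitC at the same hours, and the parts of the share and of vitC in these differences cannot be told apart. At 16 hr the share was 0.206% in 2i and 7.11% with vitC, and the ratios of Axin2 and Tcf7 were 1.68-fold and 2.21-fold. In the edgeR test over all hours, the share as a covariate took the log2 vitC effect of Axin2 from 0.59 to 0.48 (adjusted p = 0.405). That of Tcf7 went from 0.70 to 0.47 (adjusted p = 0.482). At 24 hr the share was 5.92% in 2i and 6.37% with vitC, and the ratios of Axin2, Tcf7, and Lef1 were 1.94-fold, 2.02-fold, and 3.26-fold in that pair. Lars2 alone took 0.921% and 2.01% there, and the vitC library had the smallest total of all, 4753528 counts.

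**Figure D4:**
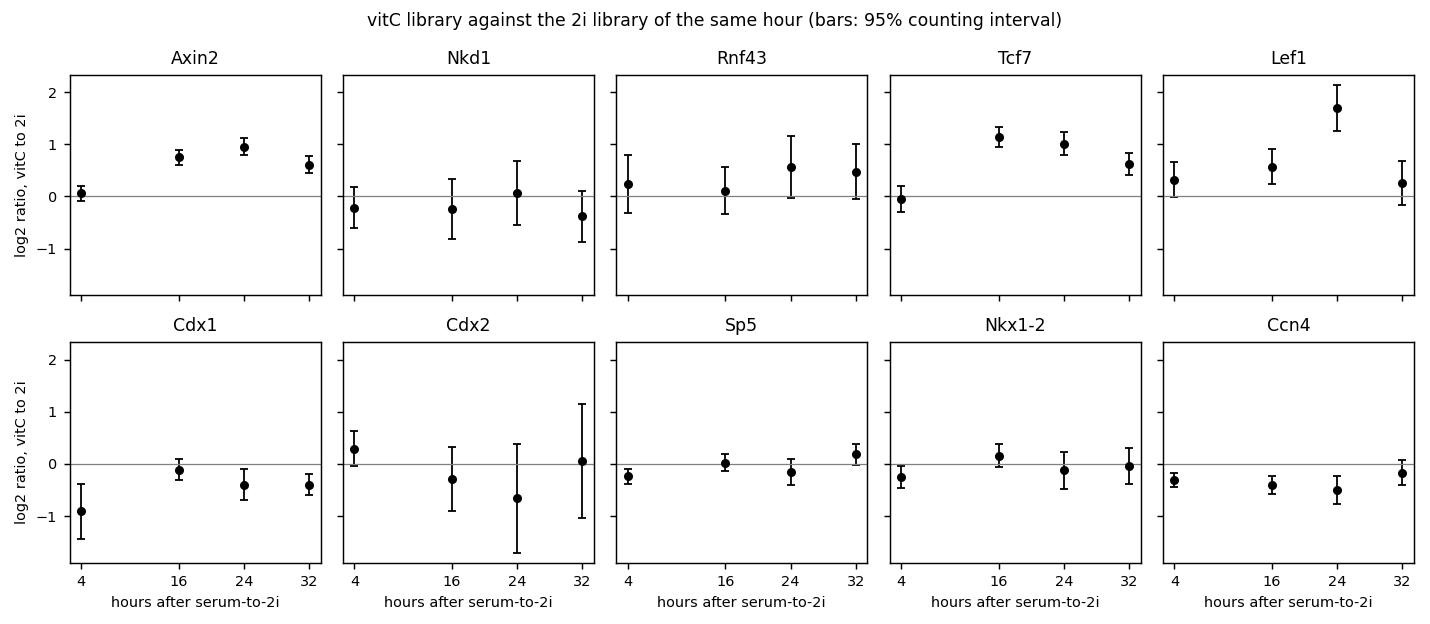
Log2 ratio of the vitC library to the 2i library of the same hour for each gene, with 95% intervals that cover counting error only and 0 marked by a line. Axin2 and Tcf7 are near 0 at 4 hr and between 0.61 and 1.15 later, Lef1 is at 1.70 at 24 hr, and Cdx1 and Ccn4 lie below 0 at all 4 hours.

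The rest of the pathway was followed in lists. Their counts stand beside the shares over all genes tested, of which 9.16%, 11.5%, and 13.5% rose and 7.24%, 8.98%, and 11.8% fell at 16, 24, and 32 hr relative to 4 hr. Beta-catenin itself (Ctnnb1) was abundant, at 1008 to 1261 CPM in 2i and 835 to 1222 CPM with vitC, and did not pass in any comparison (adjusted p = 0.0541 at 16 hr and 0.0574 at 24 hr, with log2 fold changes of -0.42 and -0.40). Both values passed with DESeq2 (adjusted p = 0.0225 and 0.0303). In edgeR both also passed without a filter (0.0316 and 0.0349) and once corrected for GC content and length (0.0194 and 0.018). The same held without Lars2 and related features (0.039 and 0.0414), and at 24 hr also without 16 hr (0.0477). Neither passed with the share of Lars2 and related features as a covariate (0.688 and 0.914). Of the 12 tested of 13 nuclear partners, 1 rose by 16 hr, 4 by 24 hr, and 2 by 32 hr relative to 4 hr, and none fell. The counts at 16 and 32 hr were near the share over all genes. Tcf7l1, the TCF repressor, rose by 2.13 from 4 to 24 hr (SE 0.50, adjusted p = 0.011), from 3.03 to 5.17 CPM in 2i and from 1.94 to 22.9 CPM with vitC. Bcl9l, a coactivator of beta-catenin, rose by 1.68 at 16 hr (adjusted p = 0.0146) and 1.61 at 24 hr (adjusted p = 0.0149), calls that were lost without the treatment term (adjusted p = 0.0904 and 0.0905). Aes, a corepressor also named Tle5, rose by 0.54 at 32 hr (adjusted p = 0.0191), but was at 0.31 once corrected for GC content and length (adjusted p = 0.123). The remaining rises were those of Bcl9 at 24 hr (1.14, adjusted p = 0.0235) and of Pygo1 at 24 and 32 hr (1.85 and 1.72, adjusted p = 0.0211 and 0.0213), both named after their values were seen, and Pygo1 has a mean of 2.56 CPM. Tcf7l2 passed in no comparison, and was nearest with vitC, at 1.27 (adjusted p = 0.0512), where DESeq2 called it (adjusted p = 0.00253) and 4 other alternatives did too.

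Of the 11 genes of the degradation complex, 1, 4, and 2 rose at 16, 24, and 32 hr relative to 4 hr and none fell, and again the counts at 16 and 32 hr were near the share over all genes. Gsk3b, which encodes a target of CHIR99021, rose by 0.56 at 16 hr (adjusted p = 0.0342) and 0.69 at 24 hr (adjusted p = 0.0113) but was at 0.20 at 32 hr (adjusted p = 0.396). It went from 64.6 CPM at 4 hr to 79.7 and 84.8 CPM at 16 and 24 hr in 2i, and from 71.8 to 128 and 144 CPM with vitC. Both calls of Gsk3b were lost without the treatment term (adjusted p = 0.19 and 0.107), and that at 16 hr also once corrected for GC content and length (0.40, adjusted p = 0.0794) and without 32 hr (adjusted p = 0.0676). Apc, the other scaffold of the complex, rose by 0.74 at 24 hr (adjusted p = 0.0059), a call lost once corrected for GC content and length (0.39, adjusted p = 0.0504) and without the treatment term (adjusted p = 0.08). Gsk3a did not pass in any comparison. Of the 21 receptors and Dishevelled genes, 2, 6, and 7 rose, among them the coreceptor Lrp5 (0.73, 0.92, and 0.76) and the Dishevelled gene Dvl3 (1.18, 1.24, and 1.07), and 1, 0, and 1 fell. At 16 hr the count was near the share over all genes in either direction. Corrected for GC content and length, Lrp5 missed the threshold at 16 hr (0.51, adjusted p = 0.0548) and 32 hr (0.47, adjusted p = 0.0581), and Dvl3 at 32 hr (0.82, adjusted p = 0.0634). Without the treatment term Dvl3 missed it at all 3 hours (adjusted p of 0.0575 to 0.0748) and Lrp5 at 16 hr (adjusted p = 0.0593). The falls were those of Lgr5 and Lgr6, with means of 0.745 and 0.561 CPM. Of the 17 extracellular and membrane antagonists, 15 were tested, of which Frzb alone rose, by 2.09 at 24 hr and 2.67 at 32 hr from a mean of 2.26 CPM, and none fell. Lgr5, Lgr6, and Frzb were named after their values were seen.

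Of the 21 ligand and ligand secretion genes, 17 were tested. Relative to 4 hr, 2, 3, and 2 rose and 1, 1, and 5 fell at 16, 24, and 32 hr, where the rises at 16 and 32 hr and the falls at 16 and 24 hr were near the share over all genes. Wnt3 had log2 fold changes of -1.02, -0.95, and -1.79 (adjusted p = 0.0186, 0.0225, and 0.00057), from 15.7 CPM in both 4 hr libraries to 4.38 and 4.67 CPM at 32 hr. Wls, which carries Wnt proteins to the cell surface, rose by 0.79, 0.71, and 0.92. Wnt6 fell by 2.74 between 16 and 32 hr (adjusted p = 0.00947), but not without the treatment term (adjusted p = 0.0643).

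Genes described as beta-catenin targets in some tissue formed a further list. Of 26 such genes, 22 were tested, and relative to 4 hr 1, 3, and 4 rose and 4, 3, and 4 fell at 16, 24, and 32 hr. All of these counts except the 4 falls at 16 hr were near the share over all genes. Myc rose by 2.24 and 2.51 at 24 and 32 hr. T, which marks the primitive streak, was at -0.88, -1.12, and -1.18 (adjusted p = 0.0269, 0.00868, and 0.00406), from 18 to 8.31 CPM in 2i and from 15.1 to 6.33 CPM with vitC between 4 and 32 hr. Ccnd1, the gene of cyclin D1, was at -1.27, -1.57, and -1.93 (adjusted p = 0.00142, 0.000288, and 4.51e-05). Ascl2, also held by the trophoblast list, was at -1.35 and -1.66 at 24 and 32 hr, and it fell in both, as Cdx2 did. Without the treatment term T missed the threshold at 16 hr (adjusted p = 0.0595) and Ascl2 at 24 hr (adjusted p = 0.0684). The remaining 6 tested trophoblast markers did not pass in any comparison of hours. Of the 4 tested markers of primitive streak and mesoderm, T and Eomes were lower than at 4 hr at all 3 later hours, Fgf8 at 16 and 32 hr, and Gsc was higher.

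Relative to 4 hr, 9.16%, 11.5%, and 13.5% of all genes tested rose and 7.24%, 8.98%, and 11.8% fell at 16, 24, and 32 hr. Of 8 pluripotency genes known to be repressed by TCF7L1, 4, 5, and 4 rose and 1 fell, the fall near that share. Esrrb, a principal target of this repression, rose by 0.60 at 24 hr (SE 0.16, adjusted p = 0.0182) and 0.65 at 32 hr (SE 0.16, adjusted p = 0.00968), values that missed the threshold once corrected for GC content and length (0.43 at both hours, adjusted p = 0.0653 and 0.0616). Tfcp2l1 rose by 0.88, 1.08, and 0.71, and Klf2 by 0.83, 0.88, and 0.56. At 32 hr Klf2 missed the threshold once corrected for GC content and length (0.43, adjusted p = 0.0604) and without the treatment term (adjusted p = 0.0668). Nr0b1 was the gene that fell, with values of -1.58, -1.47, and -0.96, the last of which missed the threshold without the treatment term (adjusted p = 0.115). None of the 7 lists of pathway genes and targets had a member that passed for vitC with edgeR under the main settings. At an unadjusted p under 0.05 were 2062 of all 14931 genes. The lists had 6 of 17 ligand genes, 5 of 21 receptors, 2 of 15 antagonists, and 2 of 11 degradation genes there. The others had 6 of 12 nuclear partners, 5 of 22 further targets, and 4 of 8 pluripotency genes. The counts of antagonists and degradation genes were near the share over all genes. DESeq2 called Tcf7l2, as given above.

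Across the 8 libraries the log2 CPM of the 10 genes formed no single pattern. Pearson's r was 0.88 between Axin2 and Tcf7, 0.83 between Axin2 and Lef1, and 0.74 between Axin2 and Rnf43. It was 0.93 between Sp5 and Nkx1-2, 0.87 between Sp5 and Ccn4, and 0.93 between Cdx2 and Ccn4. Axin2 and Sp5, by contrast, were at 0.04, and Cdx1 and Cdx2 at -0.73. The genes most like Axin2, among 11123 genes with a mean of at least 5 CPM, were Myrf, Sp2, Gatad2b, Chd8, and Helz (r of 0.99 for each). For Tcf7 they were Fto, Crtc2, Etl4, Prr13, and Vps13b, for Sp5 Mapk8ip1, Ddr1, Serf2, Zfp54, and Clvs2 (0.93 to 0.98), and for Ccn4 Srsf7, Itga8, Kbtbd7, Cited1, and Gm6180 (0.96 to 0.97). None of the 10 genes stood among the 5 nearest of another. All of these values rest on the same 8 libraries, which share their hours, lanes, and uneven depth, and are given as a description.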

How the data were processed

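RNA-seq of 8 libraries of E14 cells was analysed, 1 for each of 4 hours and 2 treatments. The authors depleted ribosomal RNA (Ribo-Zero Gold), prepared unstranded TruSeq libraries, sequenced 50 bp single-end reads, and deposited raw counts per Ensembl gene without normalization. The submitters' processing notes name GSNAP, HTSeq, and the builds NCBIM37 and mm9. The annotation and strand setting of the counting are not given in the sources used here. Groups came from the sample labels, and lanes from the names of the deposited files.

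Symbols, merged exon lengths, and GC content came from GENCODE M21, in which 32604 of 37263 identifiers were found. The 14931 genes that reached 1 CPM in 2 or more libraries were tested with edgeR 4.0.16 in R 4.3.3 (TMM, quasi-likelihood test, Benjamini-Hochberg adjustment, threshold 0.05). The model was additive in hour and treatment, or had a linear change of the vitC effect with hours added. CPM is TMM-scaled, log2 CPM uses a prior count of 2, and Wilson 95% intervals cover counting error. At the floor of 3 counts a library shows 0.158 to 0.643 CPM. Depth is the library total given in the report. No 2 libraries held identical values.

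The members and gene lists were chosen with earlier results of these data known. Of the lists, up to 2 risen and 2 fallen genes with a mean of at least 5 CPM per comparison were eligible to be named, with Ctnnb1, Gsk3a, Gsk3b, Tcf7l1, Tcf7l2, Esrrb, and T always named. Eligible genes not named are not reported here. Likeness was Pearson's r of log2 CPM. The alternatives were DESeq2 1.42.0, other scalings, filters, and covariates, models without the treatment term or the hour block, and the omission of each hour. The scripts were tested on simulated data. Promoter sequences were those of RefSeq (GRCm38.p6), and the counts were not tied to their coordinates.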

Additional observations from a re-analysis of the deposited data

How the results depend on the processing

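With 1 library per combination no test had replicate cultures, and low counts limit Cdx2, Nkd1, and Rnf43. For each change below the cause was not tested. Against 4 hr, the genes that passed at 16, 24, and 32 hr numbered 2448, 3061, and 3784. With the share of Lars2 and related features as a covariate these counts were 73, 0 (1415 at an unadjusted p under 0.05), and 158, with 1, 0, and 1 of the 10 genes in place of 4, 5, and 6. Without the treatment term 1289 genes and 1 of the 10 passed at 16 hr, and 1889 and 3 at 24 hr. Between 16 and 32 hr 87 genes and 3 of the 10 passed, with 229 genes under DESeq2, 589 without a filter, 11 and 1 without the treatment term, and 54 to 100 with another hour left out (54 without 24 hr).

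For vitC, 25 genes passed. The count was 285 with DESeq2, 60 without Lars2 and related features, 13 both with a filter at 5 CPM and when corrected for GC content and length, 54 with library totals, 690 without a filter, 4 with the covariate, and 0 without the hour block. With 1 hour left out it ranged from 0 (without 32 hr) to 381 (without 4 hr), with 13 without 16 hr and 11 without 24 hr. Of the 10 genes 2 passed with DESeq2, 3 without a filter, and 0 to 2 with an hour left out (2 without 4 hr). For a vitC effect that changed over the hours 1 gene passed with DESeq2, 5 without a filter, and 0 to 8 with an hour left out, where 0 had passed.

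With the covariate the sign turned for Sp5 at 16 hr (-0.079), Nkd1 at 24 hr (0.053), and Tcf7 (-0.069) and Gsk3b (-0.118) at 32 hr. For vitC it turned for Sp5 when corrected for GC content and length (0.05) and for Cdx2 without the hour block (0.035), and with an hour left out values ranged from -0.115 to 0.031 for Sp5, -0.309 to 0.042 for Cdx2, and -0.145 to 0.014 for Nkx1-2. The change with hours, in log2 units per hour, turned with the covariate for Nkd1 (0.001) and Nkx1-2 (-0.001). With an hour left out it ranged from -0.009 to 0.046 for Axin2, -0.019 to 0.027 for Cdx1, -0.05 to 0.016 for Cdx2, -0.017 to 0.065 for Lef1, -0.033 to 0.056 for Tcf7, -0.011 to 0.012 for Nkd1, -0.01 to 0.013 for Ccn4, and -0.014 to 0.01 for Nkx1-2. Of 690 values of the 10 genes under the alternatives, 625 kept their direction and side of the threshold, 34 lost a call, 12 gained one, and 19 turned. Of 497 such values of the named list genes these were 418, 64, 14, and 1, and 40 of the 64 were lost with the covariate, 14 without the treatment term, and 9 when corrected for GC content and length.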
